A study of Mus musculus with 4 samples.

Results

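Expression of the proteasome genes was followed in the cortex of APPswe/PS1ΔE9 mice (APP), a model of Alzheimer's disease, and of wild-type (WT) mice, both 12 months old. They were the protein-coding genes named Psma to Psmg with a number, without Psmb8 and Psmb9. The count table held 48 of them among 15391 genes with protein-coding counts, and all 48 were tested. None passed the test between genotypes, where 1.17% of all features tested did. Of the 37 most abundant, 33 were higher in one APP mouse (APP-3) than in the other, against 57.8% of all abundant protein-coding genes.

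The 26S proteasome is the main protease of the cytosol and nucleus, and it degrades proteins that carry ubiquitin chains. Its core particle is a barrel of alpha (Psma) and beta (Psmb) rings with the cutting sites inside, and the regulatory particle (Psmc and Psmd) binds, unfolds and feeds in the substrate. Its subunits are known to be made in matched amounts, and its activity has long been studied in neurons that have to clear misfolded protein.

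RNA came from the cortex of 2 male APP mice and 2 male WT mice, all aged 12 months, with the strain background labelled C57BL/6. The study's methods give C57BL/6J for the WT mice and trace the APP mice to B6.Cg-Tg(APPswe/PS1ΔE9)85Dbo/Mmjax. The APP mice carry an APP with the Swedish mutations and a human PS1 that lacks an exon, both driven by the mouse Prnp promoter. The line is a model of amyloid deposition, and no other transgenic line was measured. The RNA was depleted of ribosomal RNA, and the libraries held 28525117 and 31392983 counts for APP (APP-3 and APP-4) and 43881196 and 35623228 for WT (WT-1 and WT-2). Reads of the APP transgene can fall on App, whose log2 fold change from WT to APP (log2FC) was 1.52 (adjusted p = 2.05e-06 by edgeR), as the genotypes were labelled. Markers of the cortical tissue were present in every library, with 10 of 10 genes of excitatory neurons above 0. The summed level of those neuronal markers was lowest in APP-4, at 3749 CPM (the count scaled to a common library size with edgeR's TMM factors), against 4695 in APP-3 and 4353 and 4314 in WT. Syt1 alone made up 1268 CPM in APP-3, and without it the sums were 3427 and 3132 in APP and 3628 and 3607 in WT. Of the 10 neuronal markers 9 were lower in APP (median log2FC -0.11), and 0 were called. Microglial markers rose in APP, with 9 of 12 called and sums of 544 and 678 CPM against 329 and 332. Of the astrocyte markers 2 of 6 were called higher, with sums of 4176 and 4488 CPM in APP and 3712 and 3351 in WT, and of the oligodendrocyte markers 3 of 6, with sums of 1480 and 1295 against 958 and 1075. No marker was at 0 in any library. In bulk tissue, fewer cells of a type and less RNA per cell cannot be told apart.

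By role, the 48 genes were 8 alpha subunits, 9 beta subunits, 6 ATPases and 3 other subunits of the base, 8 lid subunits and 3 chaperones that assemble the base. A further 5 encode activators, 1 an inhibitor (Psmf1) and 4 the chaperones that assemble the core (Psmg). The remaining gene, Psmc3ip, matched the name rule but encodes a recombination factor and not a subunit. The core thus had 17 genes and the regulatory particle 20.

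The levels per length compared the protein-coding transcripts of these genes in cortex RNA. Counts on other transcript types of the same genes were left out. In CPM per kilobase of transcript, averaged over the 4 libraries, the alpha subunits other than Psma8 ran from 8.43 (Psma3) to 50.2 (Psma7). The beta subunits other than Psmb10 and Psmb11 ran from 23.3 (Psmb2) to 64.9 (Psmb7). Each of these ring genes was thus well detected. Psmb5, Psmb6 and Psmb7 encode the 3 catalytic subunits of the standard proteasome and had levels per length of 34.7, 44.2 and 64.9.

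The 6 ATPases of the base, which unfold the substrate, ran from 30.9 (Psmc4) to 70.3 CPM per kilobase (Psmc1), the highest level of all 48 genes. Lid subunits ran from 12.1 (Psmd11) to 50.2 (Psmd14, the enzyme that cuts off the ubiquitin chain). The assembly chaperones were lower as a group. Those of the base had levels per length of 3.96 to 7.79, those of the core 4.73 to 7.58. Among the activators, which open the core in place of the regulatory particle, Psme4 had the highest level per length (17.9) and Psme2 the lowest (5.93). Psmf1, an inhibitor of the core, had a level per length of 4.34. Psma8 and Psmb11, the subunits of testis and of thymus cortex, had 0.131 and 0.587 CPM per kilobase. Psma8 rested on 14 and 2 counts in APP and 10 and 4 in WT.

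**Figure D1:**
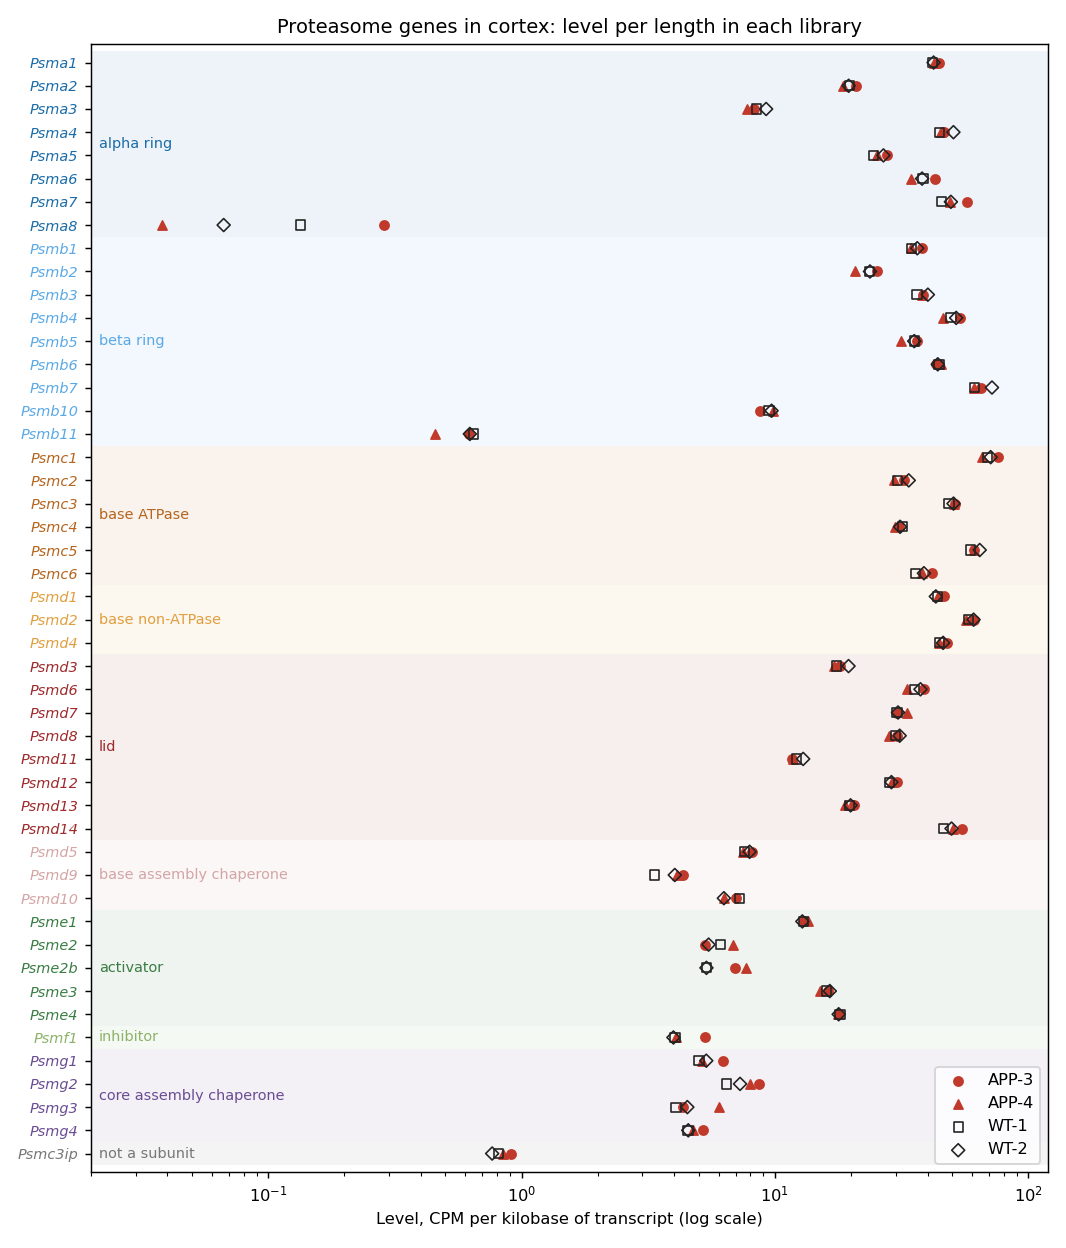
Level of each of the 48 genes in CPM per kilobase of transcript (horizontal, log scale), with one point per library, filled red for APP-3 and APP-4 and open for WT-1 and WT-2. Most ring genes and the ATPases lie on the right, with Psmc1 highest at a mean of 70.3, the chaperones lie below 10 together with Psma3 and Psmb10, and Psma8 and Psmb11 lie far to the left.

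To ask whether the genotype changed these genes, APP was compared with WT for every gene in one fit of all 25044 features of the table, a feature being the summed transcripts of one gene and one deposited type. None of the 48 genes passed an FDR of 0.05 (quasi-likelihood test of edgeR, Benjamini-Hochberg adjusted), where 1.17% of all features and 1.63% of protein-coding genes of at least 10 CPM did. The smallest adjusted p by this test was 0.293. An unadjusted p under 0.05 was found for 1 of the 48 genes (Psme2b), against 2626 of the 25044 features. Among genes of at least 10 CPM it was found for 0 of 37 members, against 1249 of 8758 protein-coding genes. The likelihood ratio test, the exact test and DESeq2 also called 0, where they called 2.48%, 2.24% and 1.26% of all features. They gave 1, 1 and 0 of the 48 genes an unadjusted p under 0.05. At the study's limit of a 1.5-fold change, 0 members and 0.862% of all features were called.

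The size of the differences is given with its standard error (SE) or 95% interval. Their median log2FC was 0.01 over the 48 genes, with 28 positive and 20 negative, against 0.0018 over all features. For 42 of the 48 genes the 95% interval of the fold change lay within 1.5-fold in either direction, against 52.0% of all features. Of the 37 genes of at least 10 CPM, 37 had such an interval, against 96.1% of protein-coding genes at that level, so the abundant proteasome genes were measured about as closely as others of their level. The remaining genes, whose intervals reached beyond 1.5-fold, were Psma8, Psmb11, Psmc3ip, Psme2b, Psmg2 and Psmg3, all under 10 CPM. Among the 37 abundant genes the APP libraries lay above both WT libraries for 7 and below both for 3, against 16.9% and 28.9% of protein-coding genes of that level.

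**Figure D2:**
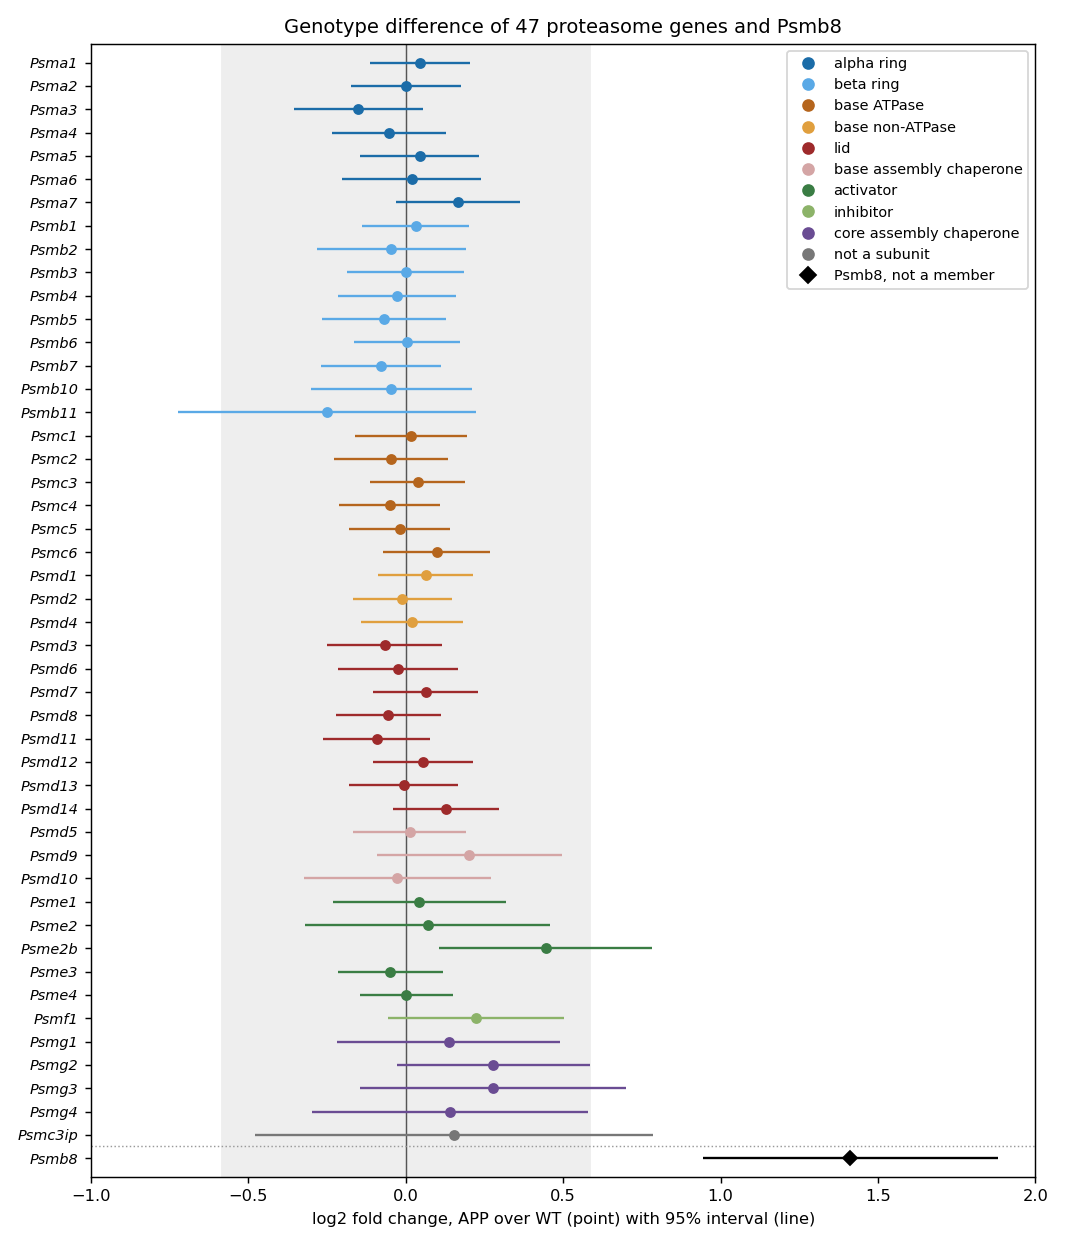
Log2 fold change of APP over WT (point) with its 95% interval (line) for 47 of the 48 genes, coloured by role, and for Psmb8, which is not one of them. Grey marks 1.5-fold in either direction. Psma8, whose interval ran from -1.31 to 2.55, is not drawn, and Psmb8 at 1.41 lies alone on the right.

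The catalytic subunits gave the same picture one by one. Psmb5, which carries the chymotrypsin-like site, had 32.7 CPM in APP-3, 28.2 in APP-4 and 32.0 and 31.9 in the WT mice. WT lay inside the range of the APP mice, and the log2FC was -0.07 (SE 0.09, adjusted p = 0.872). Psmb6, with the caspase-like site, had 34.6 and 36.0 CPM in APP and 35.4 and 35.0 in WT (log2FC 0.0039, SE 0.08). Psmb7, with the trypsin-like site, had 75.6 and 70.7 CPM in APP and 71.3 and 83.3 in WT (log2FC -0.08, SE 0.09). WT-2 alone was high for Psmb7, and the groups overlapped for all 3 genes. Across the beta ring the median log2FC was -0.05 and across the alpha ring 0.03.

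Psma7, an alpha subunit, had 52.2 and 44.9 CPM in APP and 41.4 and 45.2 in WT. APP-3 alone was high, and the log2FC was 0.17 (SE 0.09, adjusted p = 0.573). Psma3, another alpha subunit, had the lowest log2FC of the core after Psmb11, with 23.0 and 21.1 CPM in APP and 23.3 and 25.7 in WT and a value of -0.15 (SE 0.09, adjusted p = 0.639). Psmb11 had 2.63 and 1.93 CPM in APP and 2.75 and 2.66 in WT, a log2FC of -0.25 (SE 0.21) on few counts.

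In the regulatory particle, Psmd14 had 83.9 and 77.5 CPM in APP and 71.2 and 76.7 in WT. Both APP mice lay above both WT mice by a small margin, and the log2FC was 0.13 (SE 0.08, adjusted p = 0.629). Psmd11, a lid subunit, was the lowest of the particle, with 33.1 and 33.4 CPM in APP and 34.6 and 36.4 in WT (log2FC -0.09, SE 0.08). Psmc1, the most abundant gene per length, had 120.5 and 104.5 CPM in APP and 109.4 and 113.0 in WT, so that WT lay between the APP mice (log2FC 0.02). The medians were -0.0011 for the ATPases, 0.02 for the other base subunits and -0.02 for the lid.

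Since the core and the regulatory particle are built from separate genes, their balance was compared. The median log2FC was -0.0008 for the core and 0.0026 for the regulatory particle. In summed CPM per kilobase, the ratio of core to regulatory particle was 0.793 and 0.773 in the APP libraries and 0.787 and 0.799 in the WT libraries. The genotypes overlapped, at 0.783 ± 0.0141 in APP and 0.793 ± 0.00894 in WT (SD, n = 2; exact permutation test, two-sided p = 0.667). With 2 mice against 2 that test cannot go below 0.3333. Without the tissue-restricted and inducible subunits and the base chaperones, the ratio was 0.790 ± 0.0164 in APP and 0.799 ± 0.00895 in WT. These ratios took protein-coding transcripts only. With all transcript types summed, the ratio was 0.8477 and 0.8243 in APP and 0.8315 and 0.8432 in WT.

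Psme1 and Psme2 form the interferon-responsive activator PA28, Psme3 forms its nuclear counterpart and Psme4 is the activator PA200. Psme1 had 9.27 and 9.58 CPM in APP and 9.19 and 9.10 in WT (log2FC 0.04, SE 0.12). Psme2 had 4.22 and 5.43 CPM in APP and 4.85 and 4.35 in WT (log2FC 0.07, SE 0.18). Neither subunit of PA28 thus passed the test. Psme3 had 43.2 and 40.2 CPM in APP and 42.5 and 43.8 in WT (log2FC -0.05, SE 0.08). Psme4 had 109.6 and 107.2 CPM in APP and 109.5 and 107.1 in WT (log2FC 0.0012, SE 0.07), the closest match between genotypes among the activators.

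Psme2b had the smallest p of all members. It is a single-exon copy of Psme2 on chromosome 11 (GRCm38, chr11:48945354-48946190, minus strand). It had 5.81 and 6.43 CPM in APP and 4.50 and 4.49 in WT, a log2FC of 0.44 (SE 0.15, adjusted p = 0.293). Its transcript was identical to that of Psme2 at 99.3% of 716 aligned bases, so how reads were shared out between these genes is uncertain. Psme2b also lies within reach of the spans of Gm12185 and 9930111J21Rik1 on the same strand, but overlap with their exons was not tested. With the counts of Psme2 and Psme2b summed, which was decided once the values were known, the log2FC was 0.27 (SE 0.13, adjusted p = 0.529).

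Psmf1, which encodes the inhibitor PI31, had 20.2 and 15.5 CPM in APP and 15.4 and 15.1 in WT. APP-3 alone was high, and the log2FC was 0.22 (SE 0.13, adjusted p = 0.601). The 4 chaperones that pair up to build the alpha ring all had positive values, with a median log2FC of 0.21. Psmg2 had 9.17 and 8.42 CPM in APP and 6.80 and 7.71 in WT (log2FC 0.28, SE 0.14, adjusted p = 0.535). Psmg3 had 3.84 and 5.30 CPM in APP and 3.59 and 3.98 in WT (log2FC 0.28, SE 0.19). All 4 chaperones lay under 10 CPM, and 0 of the 4 were called.

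Leaving out one mouse at a time showed what rested on single libraries. Without APP-4, Psma7 (log2FC 0.27, adjusted p = 0.0427 by edgeR) and Psmf1 (0.40, adjusted p = 0.0252) were called higher in APP, along with 4.34% of all features. Both calls then compare APP-3 alone with WT, with the lone mouse taken to vary like the others, and 2 of 48 genes is close to the share of all features. Without APP-3, the log2FCs of Psma7 and Psmf1 were 0.05 and 0.02. They were 0.10 and 0.23 without WT-1, and 0.23 and 0.22 without WT-2.

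The mice of one genotype were also compared with each other, as a description without a test. APP-3 lay above APP-4 in 40 of the 48 genes, with a median log2 ratio of 0.11, and 8 of 8 alpha subunits and 6 of 6 ATPases were among them. Of the 37 abundant genes, 33 (89.2%) were higher in APP-3, against 57.8% of protein-coding genes of at least 10 CPM. Their median log2 ratio was 0.10, against 0.03 for the protein-coding genes of that level. The WT mice differed less, and here WT-2 was the higher one. WT-1 lay above WT-2 in 8 of the 37 genes (21.6%, against 45.6%), with a median log2 ratio of -0.06 against -0.01.

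The median size of the log2 ratio over the 37 genes, regardless of sign, was 0.12 between the APP mice, 0.06 between the WT mice and 0.05 between genotypes. Over all protein-coding genes of at least 10 CPM it was 0.11, 0.06 and 0.08. The abundant proteasome genes thus had sizes near those of other genes between mice of one genotype, and a smaller size between genotypes. The ratio between genotypes is one of means of 2 mice, which vary less than single mice. All 48 genes together summed to 2211 and 2063 CPM in APP and to 2072 and 2163 in WT, so the genotypes overlapped. Between the APP mice the median log2 ratio was 0.14 for the core and 0.10 for the regulatory particle. Some genes went the other way. Psmb10, the inducible subunit counted here, had 11.4 CPM in APP-3 against 12.9 in APP-4, and Psmd7, a lid subunit, had 48.1 and 52.6. Oligodendrocyte markers moved with the proteasome genes in both pairs, with 6 of 6 higher in APP-3 than in APP-4 and 6 of 6 higher in WT-2 than in WT-1. Of the excitatory neuron markers 8 of 10 were higher in APP-3, but 4 of 10 were higher in WT-2. Microglial markers went the opposite way between the APP mice, with 0 of 12 higher in APP-3, but 8 of 12 were higher in WT-2. Of the astrocyte markers, 1 of 6 was higher in APP-3 and 3 of 6 were higher in WT-2. The part of cell makeup in these differences was not tested.

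**Figure D3:**
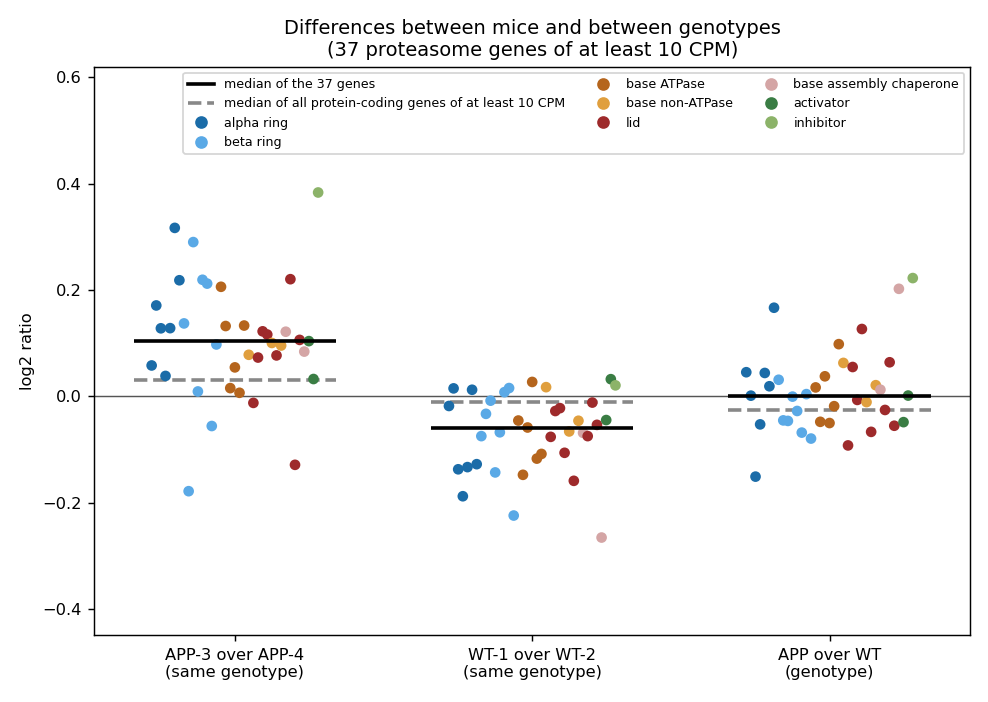
Log2 ratios (vertical) of the 37 proteasome genes of at least 10 CPM between the APP mice, between the WT mice and between genotypes, one point per gene coloured by role. Black lines mark the median of the 37 genes (0.10, -0.06 and 0.0010) and grey dashed lines that of all protein-coding genes of at least 10 CPM.

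The inducible subunits set a gene outside the list beside its members. In cells exposed to interferon, Psmb8, Psmb9 and Psmb10 replace Psmb5, Psmb6 and Psmb7 to form the immunoproteasome. Psmb8 was counted 89 and 107 times in APP and 53 and 44 times in WT, with both APP mice above both WT mice. It rose from 1.22 to 3.26 CPM, a log2FC of 1.41 (SE 0.21, adjusted p = 0.00951 by edgeR). Psmb10 had 11.4 and 12.9 CPM in APP and 12.4 and 12.7 in WT, a log2FC of -0.05 (SE 0.12, adjusted p = 0.942). Psmb9 was counted through a retained-intron transcript, with 16 and 34 counts in APP and 15 and 13 in WT (adjusted p = 0.349). Microglial markers moved with Psmb8, and their part in its rise was not tested.

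Other genes of the ubiquitin-proteasome pathway were taken from a list of 34, of which 32 had protein-coding counts. Of these 32, 1 (Psmb8) was called higher and 0 lower by edgeR's test, against 1.17% of all features in either direction. By that test 4 had an unadjusted p under 0.05, against 2626 of the 25044 features. The likelihood ratio test, the exact test and DESeq2 also called 1, against 2.48%, 2.24% and 1.26% of all features. Nfe2l1, the transcription factor that raises proteasome genes when the proteasome is inhibited, had 168 and 154 CPM in APP and 156 and 155 in WT (log2FC 0.05, SE 0.07). Nfe2l2, its relative in the response to oxidants, had 13.2 and 13.8 CPM in APP and 10.9 and 9.52 in WT. Both APP mice lay above WT, but the log2FC of 0.40 (SE 0.12) did not pass (adjusted p = 0.212). Pomp, which guides the beta ring onto the alpha ring, had 46.6 and 48.7 CPM in APP and 45.5 and 51.5 in WT (log2FC -0.02). Adrm1, a ubiquitin receptor of the regulatory particle, had 9.13 and 7.65 CPM in APP and 9.10 and 9.86 in WT (log2FC -0.18, SE 0.14).

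Rps27a, which encodes ubiquitin fused to a ribosomal protein, had 52.3 and 55.7 CPM in APP and 44.5 and 45.8 in WT (log2FC 0.26, adjusted p = 0.179). Ubqln4, a shuttle that carries ubiquitinated proteins, had a log2FC of -0.19 (adjusted p = 0.454). Without APP-3, 5 pathway genes were called, Nfe2l2 and Psmb8 among them, along with 6.80% of all features, and without APP-4 there were 2 (Psmb8 and Rad23b).

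Some members were counted mostly on transcripts that do not encode the protein. Psma3, on chromosome 12 (GRCm38, chr12:70974621-70996347, plus strand), had 1736 and 1697 counts in APP and 2252 and 1766 in WT on one transcript of the type nonsense-mediated decay. Those were 69.5%, 68.5%, 65.2% and 62.2% of the counts of the gene. The transcripts of that type together had a log2FC of 0.18 (SE 0.08, adjusted p = 0.432), and the protein-coding ones -0.15. The sign of Psma3 thus depended on the transcripts taken, and over all types its log2FC was 0.07 (adjusted p = 0.780). Its low level per length is that of the protein-coding transcripts alone.

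Psmc2, an ATPase on chromosome 5 (GRCm38, chr5:21785283-21803787, plus strand), had 3245 and 3492 counts in APP and 4904 and 3888 in WT on a retained-intron transcript of 2 exons. This was 64.6% to 68.0% of the counts of the gene. Its log2FC was 0.02 and that of the protein-coding transcript, in the fit of all transcripts, -0.04. Of 32 sums of other transcript types over the members, 0 were called by edgeR's test, against 1.17% of all features. By that test 3 had an unadjusted p under 0.05, against 2626 of the 25044 features. One of these was the retained-intron sum of Psmd3, with 95 and 118 counts in APP and 112 and 79 in WT (log2FC 0.56, adjusted p = 0.283).

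**Figure D4:**
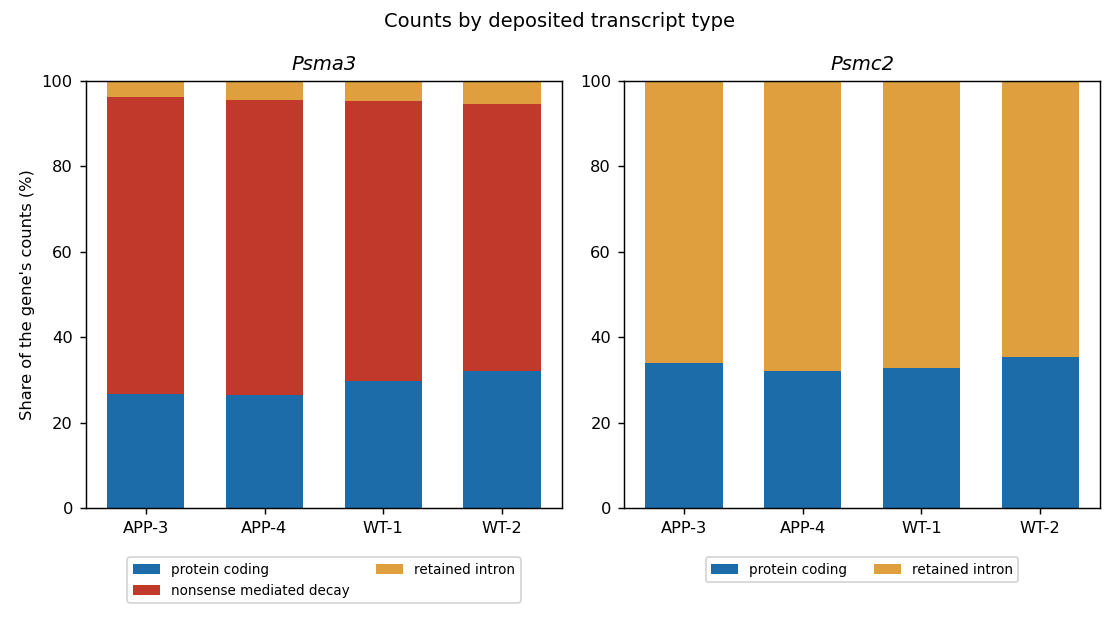
Share of the counts of Psma3 (left) and Psmc2 (right) on each deposited transcript type (vertical, percent) in the 4 libraries. Protein-coding transcripts hold the smaller share in every library, and the share of protein-coding counts of Psma3 is lower in both APP libraries than in both WT libraries.

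The counted genes can lie over others. Of the 48 members, 14 had another gene over an exon, 4 with one on the same strand and 10 with one on the opposite strand. The spans of the other genes included introns, so shared transcript sequence was not tested. Where genes on opposite strands do share sequence, their reads can be told apart if the counting used the strand, which was not stated. On the same strand it cannot separate them. Psmb7 (chr2:38588036-38644087) and Nek6 were one pair on opposite strands.

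Nfe2l1 and Nfe2l2 bind the antioxidant response element, and 6 promoters of members held its core. The letters TGACNNNGC, on either strand within 250 bases before and 50 after the start, stood in 6 of the 40 members with a promoter sequence (15.0%) and in 12.4% of all 32851 promoters. CCAAT stood in 14 of the 40 (35.0%) and in 37.4% of all. Members were counted once per gene and the background once per promoter, so these shares can be compared only roughly. The stretches around the element are shown for 2 catalytic subunits and for the most abundant activator, from RefSeq GRCm38.p6, 5′ to 3′ along each gene, with the match in capitals.
Psmb5, chr14:54618014-54618062, minus strand: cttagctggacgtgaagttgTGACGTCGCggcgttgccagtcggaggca
Psmb6, chr11:70525328-70525376, plus strand: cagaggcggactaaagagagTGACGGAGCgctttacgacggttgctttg
Psme4, chr11:30771748-30771796, plus strand: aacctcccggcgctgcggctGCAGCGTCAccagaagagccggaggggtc
The match in Psme4 reads on the opposite strand. These 3 genes had log2FCs of -0.07, 0.0039 and 0.0012, beside 0.05 for Nfe2l1 and 0.40 for Nfe2l2. The other 3 genes with the core were Psmc6, Psmd12 and Psmd9, at 0.10, 0.05 and 0.20.

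The study asked how RNAs share microRNAs, and miR-132-3p, a microRNA rich in neurons, was among those it considered. Its mature sequence is given from RefSeq with the seed, bases 2 to 8, in capitals, and the sites in members are stretches of the 3′ UTR from GRCm38 with the match to the seed in capitals.
miR-132-3p: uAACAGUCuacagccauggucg
Psma2, chr13:14626215-14626236, plus strand: cacttaggataataGACTGTTt
Psma2, chr13:14627257-14627278, plus strand: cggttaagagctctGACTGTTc
Psmc3, chr2:91066261-91066282, plus strand: gatcattgtggactGACTGTTa
Psmd12, chr11:107497771-107497792, plus strand: cattaaaaaagaaaGACTGTTt
These were the matches in the counted transcripts, in 3 of the 47 members with a 3′ UTR, against 12.7% of 14766 genes. Psma2, an alpha subunit, had 2 and a log2FC of 0.0010. Psmc3, an ATPase, and Psmd12, a lid subunit, had log2FCs of 0.04 and 0.05. The matches come from a search for the seed letters alone and are not the targets that the study predicted. The study's network placed 3 other members under miR-132-3p, namely Psma1, Psma4 and Psme4. None of those had a match to the seed in a counted 3′ UTR. The level of the microRNA was not measured in these libraries.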

How the data were processed

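Cortices of 2 male APP and 2 male WT mice were sequenced. Per the labels, RNA was extracted with an RNeasy kit, whereas the study's methods name TRIzol, in their section on qRT-PCR. The authors prepared strand-specific, paired-end libraries after ribosomal RNA depletion, aligned the reads to mouse RNA sequences of Ensembl with FANSe2 and deposited read counts per transcript. The submitters' processing notes also name CASAVA 1.8, edgeR and the human build hg 19. Coordinates here are GRCm38, from GENCODE M21. Transcripts with fewer than 10 mapped reads were left out by the authors. Their deposited log2 CPM, log2 fold changes and p-values were not used. The deposited symbols gave 37 of the 48 members in any case, so genes were named by transcript identifier (36845 of 37539 transcripts, 98.2%), and the counts were summed per gene and deposited type, in place of per symbol. The APP columns carry numbers that no label has, so they were assigned to the group alone.

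A feature needed 10 counts summed over all libraries, and APP was compared with WT on 25044 features with edgeR 4.0.16 (R 4.3.3, TMM, quasi-likelihood test, Benjamini-Hochberg). The common dispersion was 0.00832. Intervals are 95%. Alternatives were the likelihood ratio and exact tests of edgeR, DESeq2 1.42.0, other scalings, filters and transcript sums, and leaving out each library. Genes with full values were those past the FDR, the 3 highest and 3 lowest members of at least 1 CPM, the catalytic and inducible subunits, Psmd14, the activators, Psmf1, the extremes per length and the main pathway genes. Psma7, Psmc2, Psmd7, Psmd3 and Nfe2l2 among others were named after their values were seen. The members, lists and rules were chosen with earlier results of these data known. Depth was 28525117 to 43881196 counts, and counting error is larger for members near 10 CPM than for the most abundant ones. Psmd9 had 327 and 332 counts in APP and 382 and 370 in WT. Its SE was 0.13, against a median of 0.08 for members of at least 10 CPM. A gene of the pathway list is counted in its totals but not reported here by itself.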

Additional observations from a re-analysis of the deposited data

How the results depend on the processing

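No paired analysis was made, since the labels pair no APP mouse with a WT mouse. With all 4 libraries kept, the count of called members was 0 and that of called pathway genes 1 under every other test, scaling, filter and transcript sum. The share of all features called ran from 1.03% to 2.48% over these. Of 220 values, 8 changed sign. These were 3 single log2FCs (Psmb6 -0.0043 and Psma3 0.066 with all transcript types summed, Psme4 -0.0010 with DESeq2) and 5 medians. The core median was 0.0060 with library totals, 0.0039 with protein-coding scaling, 0.0024 with all types summed and 0.0001 without Psma8, Psmb10 and Psmb11, and the regulatory particle median was -0.0070 without the base chaperones. The sign of either median is thus not determined.

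Leaving out one library, the core median ran from -0.087 to 0.076 and the regulatory particle median from -0.055 to 0.054. The APP minus WT difference of the ratio ran from -0.02005 to -0.00015. Of the genes tried, 10 had log2FCs of both signs: Psmb5 from -0.18 to 0.036, Psmb6 from -0.023 to 0.031, Psmb7 from -0.19 to 0.040, Psmb10 from -0.14 to 0.041, Psme2 from -0.13 to 0.24, Psme3 from -0.10 to 0.0045, Psme4 from -0.015 to 0.019, Psma8 from -1.39 to 1.45, Nfe2l1 from -0.017 to 0.11 and Pomp from -0.11 to 0.069. None of these values was called, and the cause of the turns was not tested.

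With 2 mice a group, the median SE of the log2FC was 0.08 for the 37 members of at least 10 CPM and 0.18 for the core assembly chaperones, all under 10 CPM.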

Other observations

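Psmc3ip, which matched the name rule but is a recombination factor, had 1.18 and 1.09 CPM in APP and 1.05 and 0.989 in WT, and its log2FC was 0.15 (SE 0.29).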
